A study of Mus musculus with 45 samples.

Results

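Transcript levels of 10 genes that mark epithelial or mesenchymal identity were followed in intestinal stem cells and organoids of the mouse. The set was chosen by gene name and not by level. It holds Vim, Zeb1, Zeb2, Snai1, Snai2, Twist1, Twist2, Cdh1, Cdh2 and Epcam, which are 10 of the 52636 genes in each deposited table, and each of the 10 was found in both tables. The study sequenced RNA of Lgr5-expressing cells sorted from small intestine (15 libraries) and of organoids grown from E17.5 embryos (30 libraries). It asked how loss of Lgr5, a receptor for the Rspondin ligands that enhance Wnt signaling, changes stem cells before birth and in adults, and how organoids with or without Lgr5 respond to each Rspondin.

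An epithelial cell adheres to its neighbours through E-cadherin, the product of Cdh1, and carries the surface adhesion protein EpCAM, the product of Epcam. A mesenchymal cell lies free in matrix, builds its intermediate filaments from vimentin (Vim) and often uses N-cadherin (Cdh2) in place of E-cadherin. During epithelial-mesenchymal transition the zinc-finger factors Zeb1, Zeb2, Snai1 and Snai2 repress Cdh1 and other epithelial genes by binding E-box sequences, and the helix-loop-helix factors Twist1 and Twist2 act alongside them. All of these factors are also active in fibroblasts, smooth muscle, glia or blood cells of the gut wall, so their transcripts in a sorted sample can come from any cell in it.

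At E16.5, eGFP+ cells were sorted from the whole small intestine of Lgr5-DTReGFP embryos, in which a knocked-in cassette disrupts the Lgr5 allele that carries it. Heterozygotes (HE) carried 1 disrupted allele and homozygotes (KO) carried no intact allele. Each library was a pool of littermates. The HE pools held 7 embryos of litter 85 and 8 of litter 97, and the KO pools held 2 embryos of litter 85 and 6 of litter 97. At E18.5, eGFP+ cells came from 2 single HE embryos of the same line. The adult HE libraries came from duodenum and ileum of 2 mice of this line, aged 2 months. The adult Cre libraries came from ileum of mice aged 2 months, heterozygous for Lgr5-GFP-CreERT2, which also disrupts Lgr5, with a wild-type (HE, 2 libraries) or a floxed second Lgr5 allele (cKO, 3 libraries). These mice received 2 mg of tamoxifen, and cells positive for both eGFP and the Tomato reporter were sorted 48 h later. Every sorted cell thus carried at least 1 disrupted Lgr5 allele, and the sort used the Lgr5 reporter with exclusion of doublets but no epithelial surface marker. Organoids were 3 WT cultures (WT10, WT5 and WT30) and 2 KO cultures (KO7 and KO2) of the Lgr5-DTReGFP line at passage 4, each grown with Rspo1, Rspo2 or Rspo3 at 5 or 100 ng/ml. A culture was given 6 of the 30 organoid libraries, so these are not 30 independent samples.

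Values are CPM, the reads of a gene scaled to the total on all genes, and sorted cells and organoids came from different library kits and separately scaled tables. The sorted libraries held 1276064 to 9980239 reads, so that 1 read was worth 0.1 to 0.784 CPM, with the least depth in the E16.5 HE pools. The depth of the organoid libraries is unknown, and their smallest listed values were 0.05 to 0.1 CPM. Lgr5 was lower in the KO pools of E16.5 (64.8 and 51.7 CPM) than in the HE pools (104 and 125 CPM). It was not lower in the libraries labelled cKO (89.2, 109 and 90.7 CPM) than in those labelled HE (52.8 and 87.6 CPM). The study's own supplementary gene list gives 2 of these 5 libraries the other genotype for the same values, calling the library labelled HE 1 a cKO and the library labelled cKO 2 an HE, so both versions are reported. KO pool 1 of litter 85, which held 2 embryos, had 1.55 CPM of the female-specific Xist, against 639 to 1224 CPM in the other 3 pools. Xist was at 11.3 and 5175 CPM in the E18.5 embryos and at 6.65 to 10.8 CPM in the adult HE libraries. In the Cre mice it was at 1.7 and 0.65 CPM in both libraries labelled HE and at 1162 to 1551 CPM in all 3 labelled cKO, so sex and the deposited genotype cannot be told apart there. Under the supplementary list each genotype holds 1 library with low Xist.

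The transcripts of Epcam and Cdh1 dominated the set in every library. Scaled to exon length, the E16.5 HE means were 569 CPM per kb for Epcam, 70.6 for Cdh1, 13.6 for Vim, 5.94 for Snai2, 3.42 for Zeb2, 1.31 for Zeb1 and 0.995 for Cdh2. In the adult HE libraries Epcam was at 420 CPM per kb, Cdh1 at 173, Snai2 at 0.643, Vim at 0.390, and Zeb1 and Zeb2 at 0.0268 and 0.0257. The epithelial genes of the set were thus abundant at each stage, and its mesenchymal genes were clearly detected at E16.5. Twist1 and Twist2 never exceeded 0.55 CPM in any sorted library and Snai1 never exceeded 1.25 CPM, which is at most 11 reads of Snai1 in a library. Of these 3 genes only Snai1 passed the filter, and only in comparisons with the Cre libraries.

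**Figure D1:**
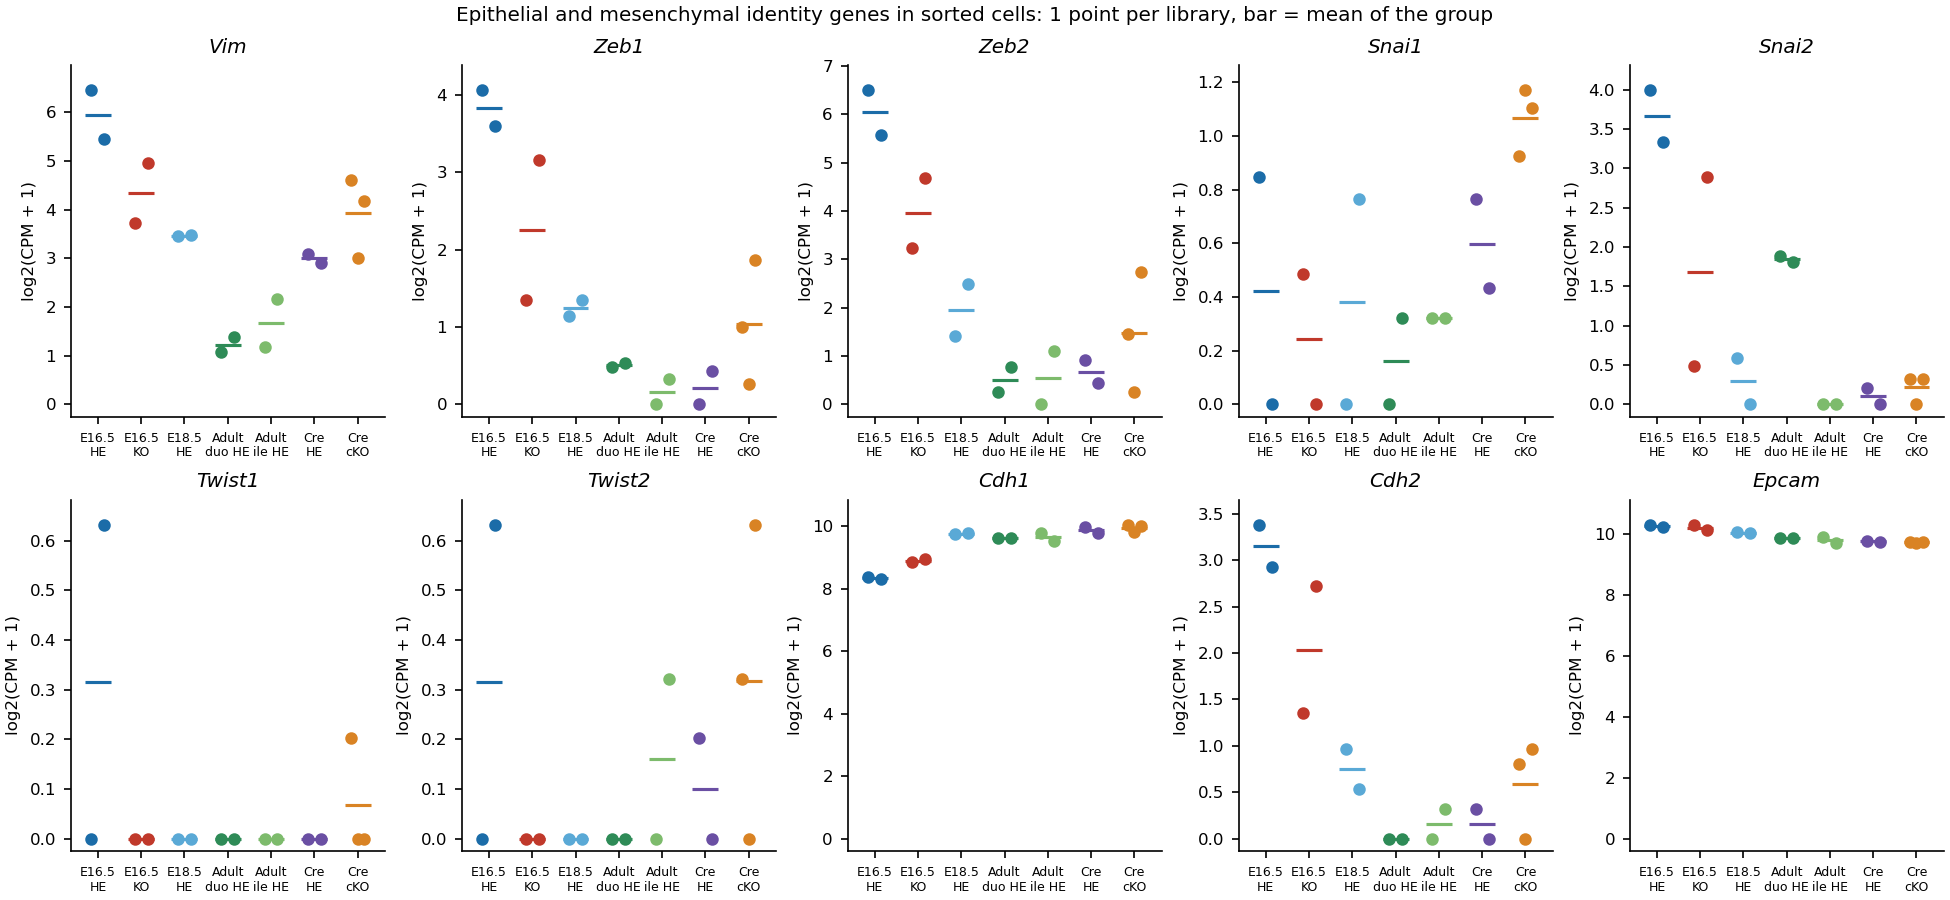
Levels of the 10 genes in the 15 sorted libraries as log2(CPM + 1), with 1 point per library and a bar at the mean of each group as labelled by the depositors. Vim, Zeb1, Zeb2, Snai2 and Cdh2 are highest in the E16.5 HE pools, Cdh1 is lowest there, and Epcam stays between 844 and 1279 CPM in all libraries.

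On GRCm38 the genes lie at chr17:87635979-87651129 (Epcam, plus strand), chr8:106603351-106670246 (Cdh1, plus strand), chr2:13573927-13582826 (Vim, plus strand), chr2:44983632-45117395 (Zeb2, minus strand) and chr16:14705852-14709385 (Snai2, plus strand). The antisense gene Zeb2os overlaps exons of Zeb2 and reached 7.85 CPM in sorted cells. The sources used here do not state whether counting used the strand, so reads of Zeb2 and Zeb2os cannot be told apart with certainty. The promoters of 3 members are shown because the repressors in the set bind E-boxes. Each window runs from 250 bases before to 50 bases after the transcript start in RefSeq on GRCm38.p6, and the E-box letters CACCTG, or CAGGTG on the other strand, are in capitals.
Epcam promoter, chr17:87635729-87636028, plus strand: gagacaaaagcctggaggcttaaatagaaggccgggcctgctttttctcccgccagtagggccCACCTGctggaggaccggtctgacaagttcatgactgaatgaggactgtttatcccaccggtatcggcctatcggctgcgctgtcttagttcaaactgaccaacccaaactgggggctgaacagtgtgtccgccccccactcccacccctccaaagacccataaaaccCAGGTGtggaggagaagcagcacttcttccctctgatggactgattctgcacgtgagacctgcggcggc
Snai1 promoter, chr2:167537945-167538244, plus strand: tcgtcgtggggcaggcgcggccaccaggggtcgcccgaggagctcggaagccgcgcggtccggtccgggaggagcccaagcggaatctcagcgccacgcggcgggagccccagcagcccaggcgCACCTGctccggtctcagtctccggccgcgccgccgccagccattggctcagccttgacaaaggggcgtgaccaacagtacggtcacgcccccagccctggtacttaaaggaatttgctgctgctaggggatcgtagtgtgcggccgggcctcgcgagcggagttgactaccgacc
Vim promoter, chr2:13574061-13574360, plus strand: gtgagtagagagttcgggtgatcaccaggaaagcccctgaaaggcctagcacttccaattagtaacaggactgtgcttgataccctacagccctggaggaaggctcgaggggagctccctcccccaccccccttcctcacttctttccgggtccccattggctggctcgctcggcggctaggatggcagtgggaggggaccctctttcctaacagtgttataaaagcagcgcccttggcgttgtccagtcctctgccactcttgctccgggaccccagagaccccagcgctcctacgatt
The Epcam window holds 2 of these E-boxes, whose first bases are at -187 and -19 relative to the start, and the Snai1 window holds 1, at -126. No window is listed for Cdh1 or Snai2, and none is given here for Zeb1 or Cdh2. The Vim window and the windows listed for Zeb2, Twist1 and Twist2 hold 0. Of 32851 promoter windows of the same 300 bases, 20.2% held at least 1 such E-box and 2.88% held 2 or more. A match in letters is a description of the window and does not show that a factor binds there.

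Between HE pools of E16.5 and HE embryos of E18.5, transcripts of the mesenchymal side of the set fell and Cdh1 rose. Vim was at 86.3 and 42.4 CPM in the E16.5 HE pools, against 9.95 and 10.1 CPM in the E18.5 embryos. Zeb2 was at 89.4 and 47.0 CPM at E16.5 and at 1.65 and 4.6 CPM at E18.5. Snai2 was at 14.9 and 9.10 CPM at E16.5 and at 0.500 and 0 CPM at E18.5. For each of these genes both E16.5 values exceeded the E18.5 values several times over. Zeb1 went from 15.7 and 11.1 CPM to 1.20 and 1.55 CPM, and Cdh2 from 9.45 and 6.60 CPM to 0.950 and 0.450 CPM. Cdh1 was at 329 and 317 CPM at E16.5 and at 857 and 873 CPM at E18.5. Thus the transcript of E-cadherin was 2.68 times as abundant on average, with a difference between groups far larger than the spread within either.

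Of the 10 genes, 7 passed the filter of 1 CPM in at least 2 of the libraries compared, and limma on log2(CPM + 1) called 6 of them (adjusted p below 0.1 and more than 1.5-fold). Of all 18408 genes tested, 49.6% were called in this comparison, 5576 higher and 3562 lower. The fall was 4.09 on the log2 scale for Zeb2 (log2 change -4.09, SE 0.45, limma adjusted p = 0.00115), with -3.37 for Snai2 (SE 0.41, 0.00158), -2.59 for Zeb1 (SE 0.34, 0.00213), -2.48 for Vim (SE 0.33, 0.00212) and -2.41 for Cdh2 (SE 0.37, 0.00351). Snai2 and Cdh2 passed the filter only through the E16.5 pools, where they were high. Cdh1 rose by 1.42 (SE 0.09, limma adjusted p = 2.6e-04). Epcam was at 1279 and 1217 CPM at E16.5 and at 1078 and 1059 CPM at E18.5, and its log2 change of -0.22 (SE 0.09, limma adjusted p = 0.0907) stayed under the fold limit. The median gene rose by 0.23 on this scale. Scaling by TMM moved that median by -0.13 and left the direction of all 7 genes as it was.

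Genes listed as markers of mesenchymal, endothelial, immune, neural and glial cells mostly fell along with these genes. By RNAscope, the paper reports matrix components in the epithelium of fetal tissue as well. The summed level of 12 mesenchymal matrix genes (collagens, Dcn, Sparc and others) was 2335 and 1029 CPM in the E16.5 HE pools and 72.3 to 89.1 CPM at E18.5, and 11 of 11 tested were called lower. Of 27 mesenchymal genes outside the matrix, such as Pdgfra and Acta2, 24 were tested and 22 were called lower, with a median change of -2.62 beside 0.23 over all genes. Col1a1, the main collagen of fibroblasts, fell from 154 to 435 CPM at E16.5 to 19.4 to 23.7 CPM at E18.5, and Pdgfra from 46.9 to 72.9 CPM to 0.700 to 1.35 CPM. Listed genes as low as Pdgfra at E18.5 passed the filter only through the E16.5 pools, where they were high. The endothelial list was called lower in 9 of 11 tested genes, the immune list in 9 of 13 (1 higher) and the neural and glial list in 4 of 7. The part of such cells in the levels of Vim, Zeb1, Zeb2, Snai2 and Cdh2 was not tested. In such bulk samples fewer cells of a type and less RNA per cell cannot be told apart.

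The summed levels of the 3 epithelial lists were higher at E18.5 than in the E16.5 HE pools, while their single genes went both ways. Junction genes summed to 5969 and 5912 CPM at E16.5 and to 7263 and 7045 CPM at E18.5, epithelial regulators to 1443 and 1581 against 2407 and 2363 CPM, and keratin and surface genes to 1930 and 1756 against 3191 and 3105 CPM. Of 14 keratin and surface genes tested, 8 were called higher and 0 lower. Of 24 junction genes, Cdh1 and Epcam among them, 8 were called higher and 4 lower. Tjp3, a tight junction scaffold, rose from 30.6 ± 5.48 to 117 ± 11.3 CPM (SD, n = 2 and 2), while F11r, a junctional adhesion molecule, fell from 135 ± 13.5 to 46.1 ± 1.06 CPM. Of 16 epithelial transcription and splicing regulators, 10 were called higher and 1 lower. Of 28 other regulators of epithelial-mesenchymal transition, 24 were tested, 6 were called higher and 6 lower. Id1 and Id3, inhibitors of helix-loop-helix factors, went in opposite directions, with log2 changes of 1.89 (SE 0.32, limma adjusted p = 0.00487) and -2.42 (SE 0.29, limma adjusted p = 0.00148).

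In the adult HE libraries of the Lgr5-DTReGFP line Vim, Zeb1 and Zeb2 were lower still, while Snai2, Cdh1 and Epcam showed no called change from E18.5. Vim was at 1.10 and 1.60 CPM in the 2 duodenum libraries and at 1.25 and 3.45 CPM in the 2 ileum libraries, all below the 9.95 and 10.1 CPM of E18.5. Zeb1 was at 0 to 0.450 CPM and Zeb2 at 0 to 1.15 CPM in these 4 libraries. Each lay below both E18.5 values, although a library of this depth gives these genes only a few reads. Cdh1 was at 731 to 870 CPM and overlapped its E18.5 values, and Epcam was at 844 to 961 CPM, below them. This comparison shares the E18.5 embryos with the comparison above, so the 2 sets of changes are not independent. The adult Cre libraries were not part of it. Those labelled HE held Vim at 7.55 and 6.5 CPM, Zeb1 at 0 and 0.35 CPM and Zeb2 at 0.9 and 0.35 CPM. Those labelled cKO held Vim at 7 to 23.3 CPM, Zeb1 at 0.2 to 2.65 CPM and Zeb2 at 0.2 to 5.65 CPM. The highest value of each gene there lay above its E18.5 values.

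The 4 adult libraries are the 2 regions of 2 mice, and the test took them as 4 samples. Of the 6 members tested, 3 were called lower and 0 higher, and 19% of all 19554 genes were called. The log2 change was -2.02 for Vim (SE 0.34, limma adjusted p = 0.00759), -0.91 for Zeb1 (SE 0.26, 0.0516) and -1.41 for Zeb2 (SE 0.42, 0.0602). Zeb1 and Zeb2 passed the filter only through the E18.5 embryos. With the regions of each mouse averaged (n = 2 mice), the same 3 were called. Without the second E18.5 embryo no member was called, and without the first E18.5 embryo only 1 was. Zeb2 was also lost without the duodenum library of mouse 1 (limma adjusted p = 0.117). Cdh1 differed by -0.13 (95% interval -0.37 to 0.12) and Epcam by -0.21 (95% interval -0.45 to 0.02). The mesenchymal matrix genes summed to 3 to 5.90 CPM, with 9 of 10 tested called lower, and Pdgfra was listed at 0 in all 4 libraries. At such sums most of these matrix genes lay under 1 CPM in each adult library. They passed the filter mainly through the E18.5 embryos, where they were high, so their calls add little to the sums. Other marker lists went up in the same libraries. The immune list summed to 2260 to 4190 CPM against 32.3 and 37.3 CPM at E18.5, with 3 of 10 tested called higher and 1 lower, mostly through Lyz2 (a lysozyme that Paneth cells share with myeloid cells) and Cd74. Ptprc, the common leukocyte antigen, was at 12.2 to 71.4 CPM against 0.25 and 1.4 CPM. The endothelial list summed to 29.4 to 72.4 CPM against 11.1 and 13.4 CPM, with 1 of 7 called higher. The part of such cells in the members' levels was not tested. Hmga2, a chromatin protein of fetal tissue that activates Snai1 and Twist1 in other cells, fell from 245 ± 8.87 to 43.7 ± 4.77 CPM (SD over 2 embryos and 4 libraries). Snai1 was at 0 to 0.250 CPM and Twist1 at 0 CPM in these adult libraries. In the E18.5 embryos Snai1 was at 0 and 0.7 CPM and Twist1 at 0 CPM, so both genes were near 0 CPM at both stages.

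In the adult HE libraries of the Lgr5-DTReGFP line Snai2 was detected in duodenum and not in ileum. It was at 2.70 and 2.5 CPM in the 2 duodenum libraries, about 15 and 11 reads, and at 0 CPM in both ileum libraries of the same mice. A count of 0 there allows up to 3 reads, or 0.730 and 0.687 CPM, so the duodenum mean of 2.60 CPM was at least 3.56-fold higher than the ileum of mouse 1 and at least 3.79-fold higher than the ileum of mouse 2. These limits cover counting error only. The adult Cre libraries, also from ileum, held Snai2 at 0 to 0.25 CPM. It was thus detected in some of these, on about 1 or 2 reads. Of the 4 members tested between regions, limma called Snai2 alone (log2 change -1.85 in ileum, SE 0.30, adjusted p = 0.0203), beside 6.88% of all 18608 genes. Snai2 passed the filter on low values only through the 2 duodenum libraries where it was high, so this call adds nothing to the values. With either duodenum library left out, no member was called. In these duodenum libraries Pdgfra was listed at 0 and Col1a1 was at 0.450 and 0.750 CPM, and the 12 matrix genes summed to 4.9 and 5.9 CPM, against 3 and 3.85 CPM in ileum. The 27 mesenchymal genes outside the matrix summed to 15.9 and 21.3 CPM in duodenum and to 17.3 and 19 CPM in ileum. Immune markers summed to 2539 and 2260 CPM in duodenum and to 2849 and 4190 CPM in ileum, while Ptprc was higher in duodenum (56.9 and 71.4 CPM against 12.2 and 27.1 CPM). The part of other cells in the level of Snai2 was not tested. Against the 0.500 and 0 CPM of E18.5, both regions together differed by 0.63 (limma adjusted p = 0.547). Vim differed by 0.44 between regions (95% interval -0.51 to 1.38), Cdh1 by 0.02 (-0.38 to 0.42) and Epcam by -0.06 (-0.46 to 0.33).

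**Figure D2:**
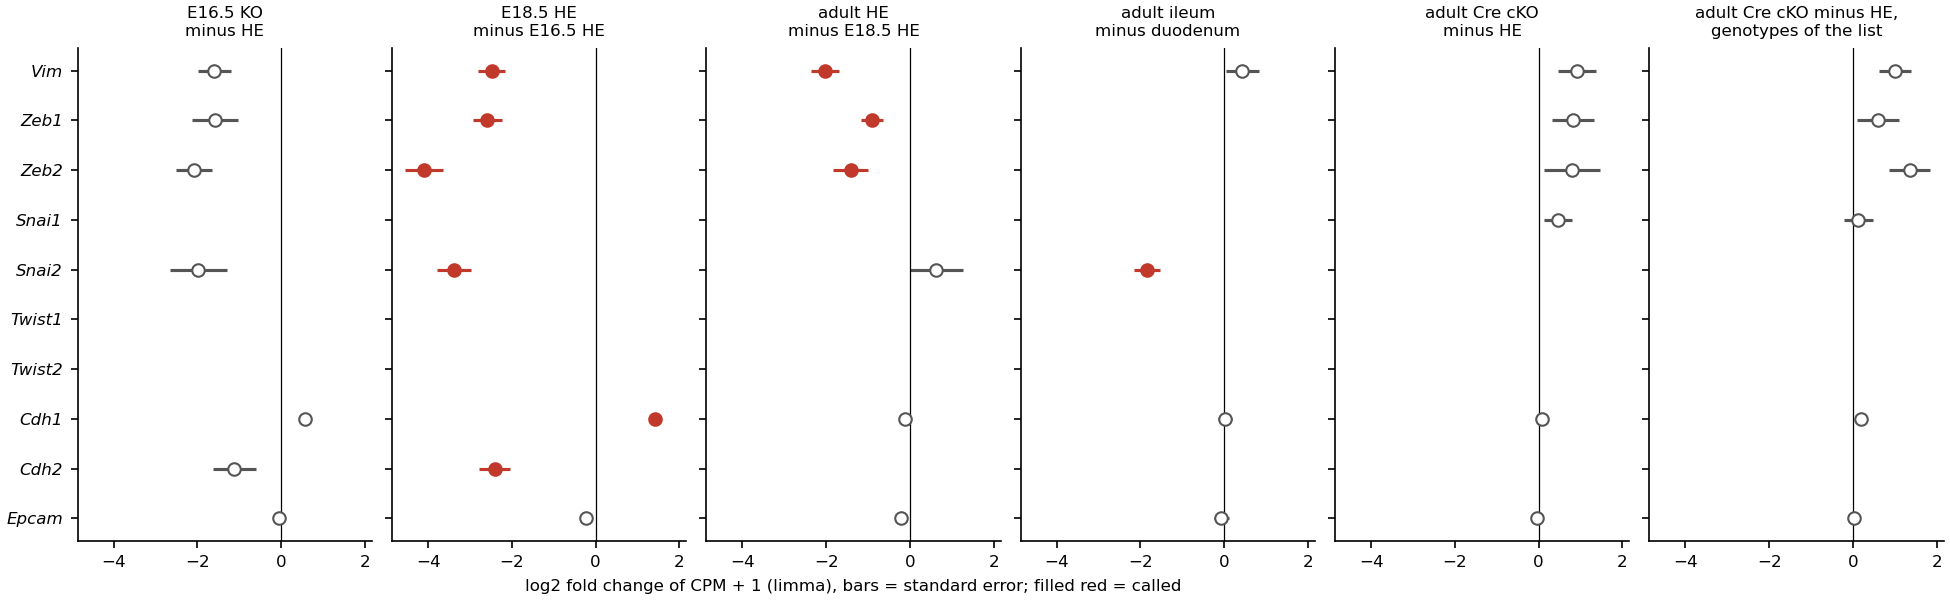
Log2 changes of CPM + 1 by limma for the members tested in 6 comparisons of sorted cells, with bars for the standard error and filled red points for called genes. From E16.5 to E18.5, 5 members fell and Cdh1 rose, whereas 0 members were called between E16.5 KO and HE pools or between adult Cre cKO and HE libraries under either version of the genotypes.

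At E16.5 both KO pools lay below both HE pools for Vim, Zeb1, Zeb2, Snai2 and Cdh2 and above them for Cdh1, but no member passed the test as designed. For Vim the HE pools of litters 85 and 97 held 86.3 and 42.4 CPM, against 12.3 and 30.2 CPM in their KO littermates. For Zeb2 these values were 89.4 and 47.0 CPM (HE) against 8.45 and 24.7 CPM (KO). For Snai2 they were 14.9 and 9.10 CPM against 0.400 and 6.40 CPM. For each of these genes KO pool 1 was the lowest library and HE pool 1 the highest. Zeb1 and Cdh2 showed the same order on 4 to 22 reads per pool. Cdh1 was higher in KO, with 465 and 489 CPM against 329 and 317 CPM, and Epcam overlapped at 1279 and 1217 against 1275 and 1123 CPM.

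The size of the difference was not alike in the 2 litters. In litter 85 Vim was 7.01 times, Zeb2 10.6 times and Zeb1 10.1 times as high in HE as in KO. In litter 97 the same ratios were 1.40, 1.90 and 1.40. Cdh1 in contrast differed alike in both litters, at 0.708 and 0.648 times the KO level. The mean of Vim was 64.3 ± 31.0 CPM for HE against 21.3 ± 12.7 CPM for KO (SD, n = 2 and 2).

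**Figure D3:**
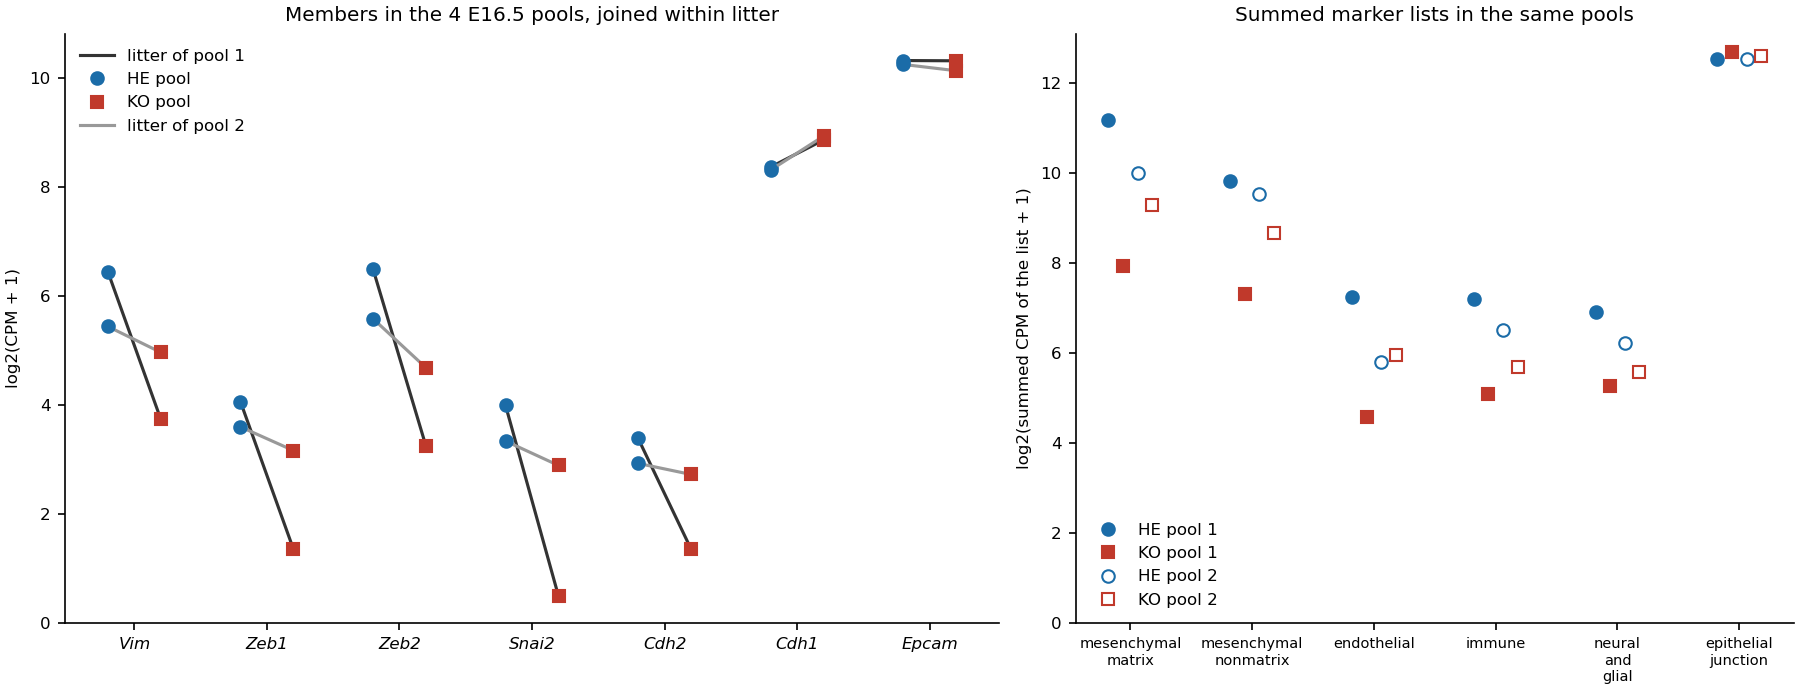
Left, log2(CPM + 1) of 7 members in the 4 E16.5 pools, with lines joining the HE and KO pool of a litter. Right, log2(summed CPM + 1) of 6 marker lists in the same pools. In litter 85 Zeb2 drops from 89.4 to 8.45 CPM and in litter 97 from 47.0 to 24.7 CPM, while Cdh1 is higher in the KO pool of both litters.

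Of 7 members tested by limma, 0 were called and 5 had an unadjusted p under 0.05 (Vim, Zeb1, Zeb2, Snai2 and Cdh1), where 91 of all 17276 genes, or 0.527%, were called. The closest was Zeb2, at an adjusted p of 0.101 by limma against the limit of 0.1 (log2 change -2.08, SE 0.43). Cdh1 differed by 0.56 (SE 0.13, limma adjusted p = 0.118), Vim by -1.59 (SE 0.40, 0.145), Snai2 by -1.98 (SE 0.68, 0.256) and Zeb1 by -1.57 (SE 0.55, 0.264). Cdh2 differed by -1.12 (SE 0.52, limma adjusted p = 0.375) and Epcam by -0.06 (SE 0.14, limma adjusted p = 0.874). The HE and KO pools did not overlap for 6 of the 7 members tested, but the same held for 46% of all genes tested. With the litter as a block, limma called 4 of 7 members lower (Vim, Zeb1, Zeb2 and Snai2) and 4.8% of all genes. That fit has 1 residual degree of freedom, and its very small adjusted p for Zeb2 (2e-14) rests on spread borrowed across genes. On whole reads recovered from the CPM, edgeR called Vim (adjusted p = 0.0658) and Zeb2 (0.0365) beside 2.83% of genes, and DESeq2 called Vim (0.0439) and Zeb2 (0.00344) beside 0.93% of genes. Whether these 2 members pass thus depends on the test, and both were lower in KO in each test run.

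The summed levels of other mesenchymal, immune, neural and glial markers were also lower in the KO pool of each litter, and those of endothelial markers in litter 85 but not in litter 97. In the order HE 1, KO 1, HE 2 and KO 2, the 12 matrix genes summed to 2335, 245, 1029 and 626 CPM, and the 27 mesenchymal genes outside the matrix to 902, 159, 745 and 405 CPM. In that order the 8 mesenchymal members summed to 216, 24.7, 117 and 74.8 CPM. Across the 4 pools the members thus ranked as the matrix genes did. Endothelial genes summed to 151, 22.8, 54.3 and 61.0 CPM, immune genes to 145, 32.8, 89.7 and 50.7 CPM, and neural and glial genes to 119, 37.4, 73.9 and 47.0 CPM. Epithelial sums were higher in KO in both litters. In the same order the 24 junction genes summed to 5969, 6619, 5912 and 6184 CPM, the keratin and surface genes to 1930, 2260, 1756 and 2158 CPM, and the epithelial regulators to 1443, 1896, 1581 and 1912 CPM. The part of these other cell types in the differences of the members was not tested.

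By single genes, 2 of 11 matrix genes tested were called lower in KO pools, Col3a1 (log2 change -2.10, limma adjusted p = 0.0825) and Fn1 (-1.61, 0.0993), and 0 were called higher. All 25 mesenchymal genes tested outside the matrix had a change below 0, with a median of -1.53 beside 0.08 over all genes, and 2 were called, Nkx2-3, a homeobox factor of gut mesenchyme, and Cald1, an actin-binding protein of smooth muscle. By limma, 0 of 23 other regulators of epithelial-mesenchymal transition, 0 of 16 epithelial regulators, 0 of 14 keratin and surface genes and 0 of 24 junction genes were called.

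Tamoxifen-induced loss of Lgr5 in adult ileum gave no called member. Under the deposited labels Vim was at 7.55 and 6.5 CPM in HE libraries and at 23.3, 7.00 and 17.1 CPM in cKO libraries. Zeb2 was at 0.9 and 0.350 CPM in HE and at 1.75, 0.200 and 5.65 CPM in cKO libraries. For both genes the groups overlapped, and the library labelled cKO 2 lay with or below the HE libraries. Of 6 members tested by limma, 0 were called and 0 had an unadjusted p under 0.05, beside 0.0504% of 19848 genes called. Vim differed by 0.92 (SE 0.45, limma adjusted p = 0.864), Snai1 by 0.47 (SE 0.33, limma adjusted p = 0.864), Cdh1 by 0.07 (95% interval -0.23 to 0.38) and Epcam by -0.02 (95% interval -0.28 to 0.23).

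With the genotypes of the supplementary list, limma called 0 of 6 members and 3.92% of genes. Then 2 members had an unadjusted p under 0.05, Vim (log2 change 1.00, SE 0.39, limma adjusted p = 0.185) and Zeb2 (1.36, SE 0.49, 0.171). Vim was then at 6.5 and 7.00 CPM in HE and at 7.55 to 23.3 CPM in cKO libraries. The groups so defined did not overlap for 4 of 6 members tested, beside 39.5% of all genes tested. The 3 libraries it lists as cKO also detected more genes (32121 to 42154 above 0) than the 2 it lists as HE (22675 and 24944), and their matrix genes summed to 13.5 to 54.7 CPM against 9.20 and 14 CPM. The part of either in the values of Vim and Zeb2 was not tested.

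The effect of Lgr5 genotype at E16.5 was set against that in the adult Cre mice with an interaction term, an alternative added after the data were seen. Under the deposited labels limma called 0 of 8 members tested, 6 of which had an unadjusted p under 0.05, beside 0.383% of genes. With the genotypes of the supplementary list 4 were called, all with a more negative change at E16.5, beside 6.53% of genes. These were Vim (difference of log2 changes -2.60, SE 0.65, limma adjusted p = 0.0373), Zeb2 (-3.44, SE 0.81, 0.0291), Snai2 (-2.26, SE 0.71, 0.0901) and Cdh2 (-1.82, SE 0.54, 0.0741). Cdh2 passed the filter only through the E16.5 pools. The Cre libraries held Snai2 at 0 to 0.25 CPM and Cdh2 at 0 to 0.95 CPM. Both genes could thus hardly fall in the adult mice, and their calls add nothing to the E16.5 values. Zeb2 was at 0.35 and 0.2 CPM in the Cre libraries that the supplementary list calls HE, so it too could hardly fall there. The 2 systems also differ in age, gut region, line and the time since Lgr5 was lost, which cannot be told apart from stage here, and under the deposited labels the adult genotypes differ in Xist as given above.

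Organoids, which are grown as epithelium without gut wall, held almost none of the mesenchymal transcription factors of this set. Over 30 libraries Zeb1 was at 0 to 0.500 CPM (median 0.200) and Zeb2 at 0 to 0.200 CPM (median 0.05), with 11 libraries at 0. Snai1 was at 0 to 0.600 CPM, Snai2 at 0 to 0.550 CPM, Twist1 at 0 to 0.150 CPM and Twist2 at 0 to 0.05 CPM. These 6 factors never reached 1 CPM in an organoid library. Cdh1 was at 702 to 1090 CPM and Epcam at 544 to 829 CPM. Vim was the exception on the mesenchymal side, present in every library at 1.20 to 12.6 CPM (median 4.55 CPM).

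Among markers of mesenchyme, Col1a1 and Pdgfra were near 0 in the same organoids, while the genes outside the matrix were not as a list. Col1a1 and Pdgfra were each at 0 to 0.350 CPM, and the 12 matrix genes summed to 1.95 to 10.6 CPM. The 27 mesenchymal genes outside the matrix summed to 55.6 to 113 CPM. In sorted cells they summed to 100.65 and 63.35 CPM in the E18.5 embryos and to 15.9 to 21.3 CPM in the adult HE libraries. The organoid range of Vim covered the adult Cre HE libraries (6.5 and 7.55 CPM) and the E18.5 embryos (9.95 and 10.1 CPM), and the lowest E16.5 HE pool stood above it at 42.4 CPM. Because kits and scaling differ between the tables, no test was run across them.

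**Figure D4:**
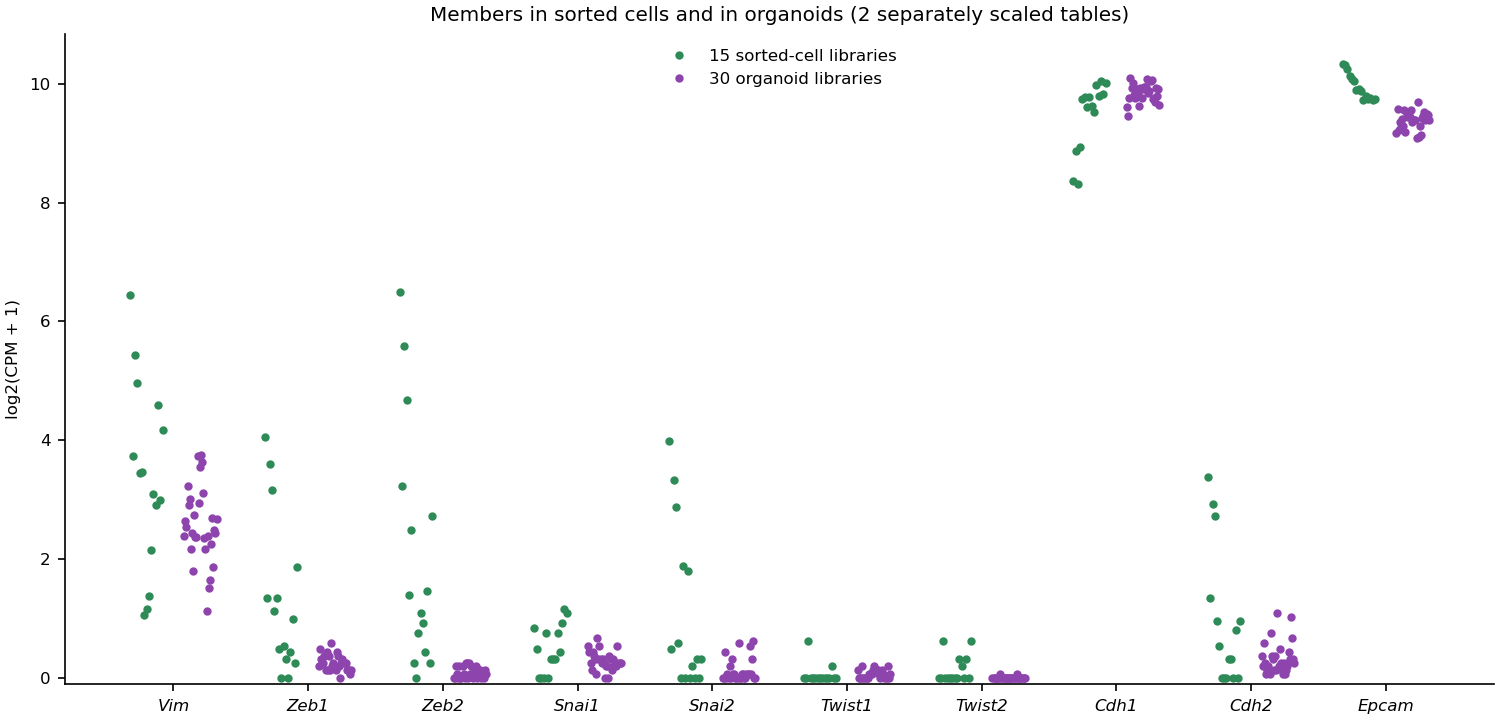
Levels of each member as log2(CPM + 1) in the 15 sorted (green) and 30 organoid (purple) libraries of the separately scaled tables. The transcription factors lie at or below 0.600 CPM in organoids, Vim lies at 1.20 to 12.6 CPM, and Cdh1 and Epcam are high in both tables.

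Few members were called between the 2 doses of an Rspondin. Only Vim, Cdh1, Cdh2 and Epcam passed the filter in organoids, so 4 of 10 members were tested, at an FDR of 0.05. For WT organoids limma called 0 members between 100 and 5 ng/ml of Rspo1, beside 53.4% of all 19130 genes, 1 with Rspo2 (33.4%) and 0 with Rspo3 (51.4%). For KO organoids it called 0 with Rspo1 (29.8%), 0 with Rspo2 (0.115%) and 0 with Rspo3 (44.5%). The count at an unadjusted p under 0.05 was 1 of 4 for Rspo1 and for Rspo2 in WT, 1 for Rspo1 in KO, and 0 in the other 3.

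Cdh2 was the member called, with Rspo2 in WT. It passed the filter only through 2 libraries grown with Rspo2 at 100 ng/ml (1.15 CPM in WT30 and 1.05 CPM in KO2), so the call adds nothing to the values. It was at 0.500, 0.700 and 1.15 CPM at 100 ng/ml in cultures WT10, WT5 and WT30 and at 0.200, 0.300 and 0.150 CPM at 5 ng/ml. Each culture was higher at the high dose, and the groups did not overlap. The log2 change was 0.54 (SE 0.17, limma adjusted p = 0.0222), on a scale where the added 1 CPM hides most of the 3.62-fold ratio of means. All values lie near the low end of what these libraries list, and no member was called with any 1 WT culture or KO2 left out or with a pseudocount of 0.1. In KO organoids Cdh2 with Rspo2 was at 0.200 and 1.05 CPM at 100 ng/ml and at 0.05 and 0.600 CPM at 5 ng/ml, also higher at the high dose in both cultures. Over all ligands Cdh2 was higher at 100 than at 5 ng/ml in 13 of 15 pairs of libraries of the same culture and ligand. These pairs come from only 5 cultures, and their Cdh2 values were 0.05 to 1.15 CPM. The median gene was also higher at 100 ng/ml for each genotype and ligand, with log2 changes of 0.04 to 0.28. The direction of Cdh2 was thus that of the median gene, and whether it exceeds this general shift was not tested over the pairs.

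Epcam was higher at the low dose in 14 of 15 such pairs. With Rspo1 the WT cultures WT10, WT5 and WT30 had 757, 751 and 750 CPM at 5 ng/ml and 571, 623 and 691 CPM at 100 ng/ml. All 3 values at the low dose exceeded all 3 at the high dose. The difference of -0.26 (SE 0.11) missed the limit (limma adjusted p = 0.0525) and passed it with the culture as a block (0.0244), a fit that called 64.1% of genes. In KO organoids Epcam with Rspo1 was at 829 and 734 CPM at 5 ng/ml and at 544 and 699 CPM at 100 ng/ml (-0.34, SE 0.14, limma adjusted p = 0.0682). With the block its adjusted p by limma was 0.0287, beside 43.8% of genes. TMM scaling moved the median of all genes by -0.05 to -0.26 in the dose comparisons. With it limma called Epcam lower at 100 ng/ml in 5 of 6 of them (adjusted p = 5.5e-04 to 0.0417), not for Rspo2 in KO. In those 5 comparisons many other genes were called with TMM too, as counted below. Without TMM the same comparisons called 29.8 to 53.4% of all genes, so a call there does not set Epcam apart from other genes. Cdh1 changed sign with TMM scaling in 4 of the 6 dose comparisons and was called in none, so no direction is given for it.

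**Figure D5:**
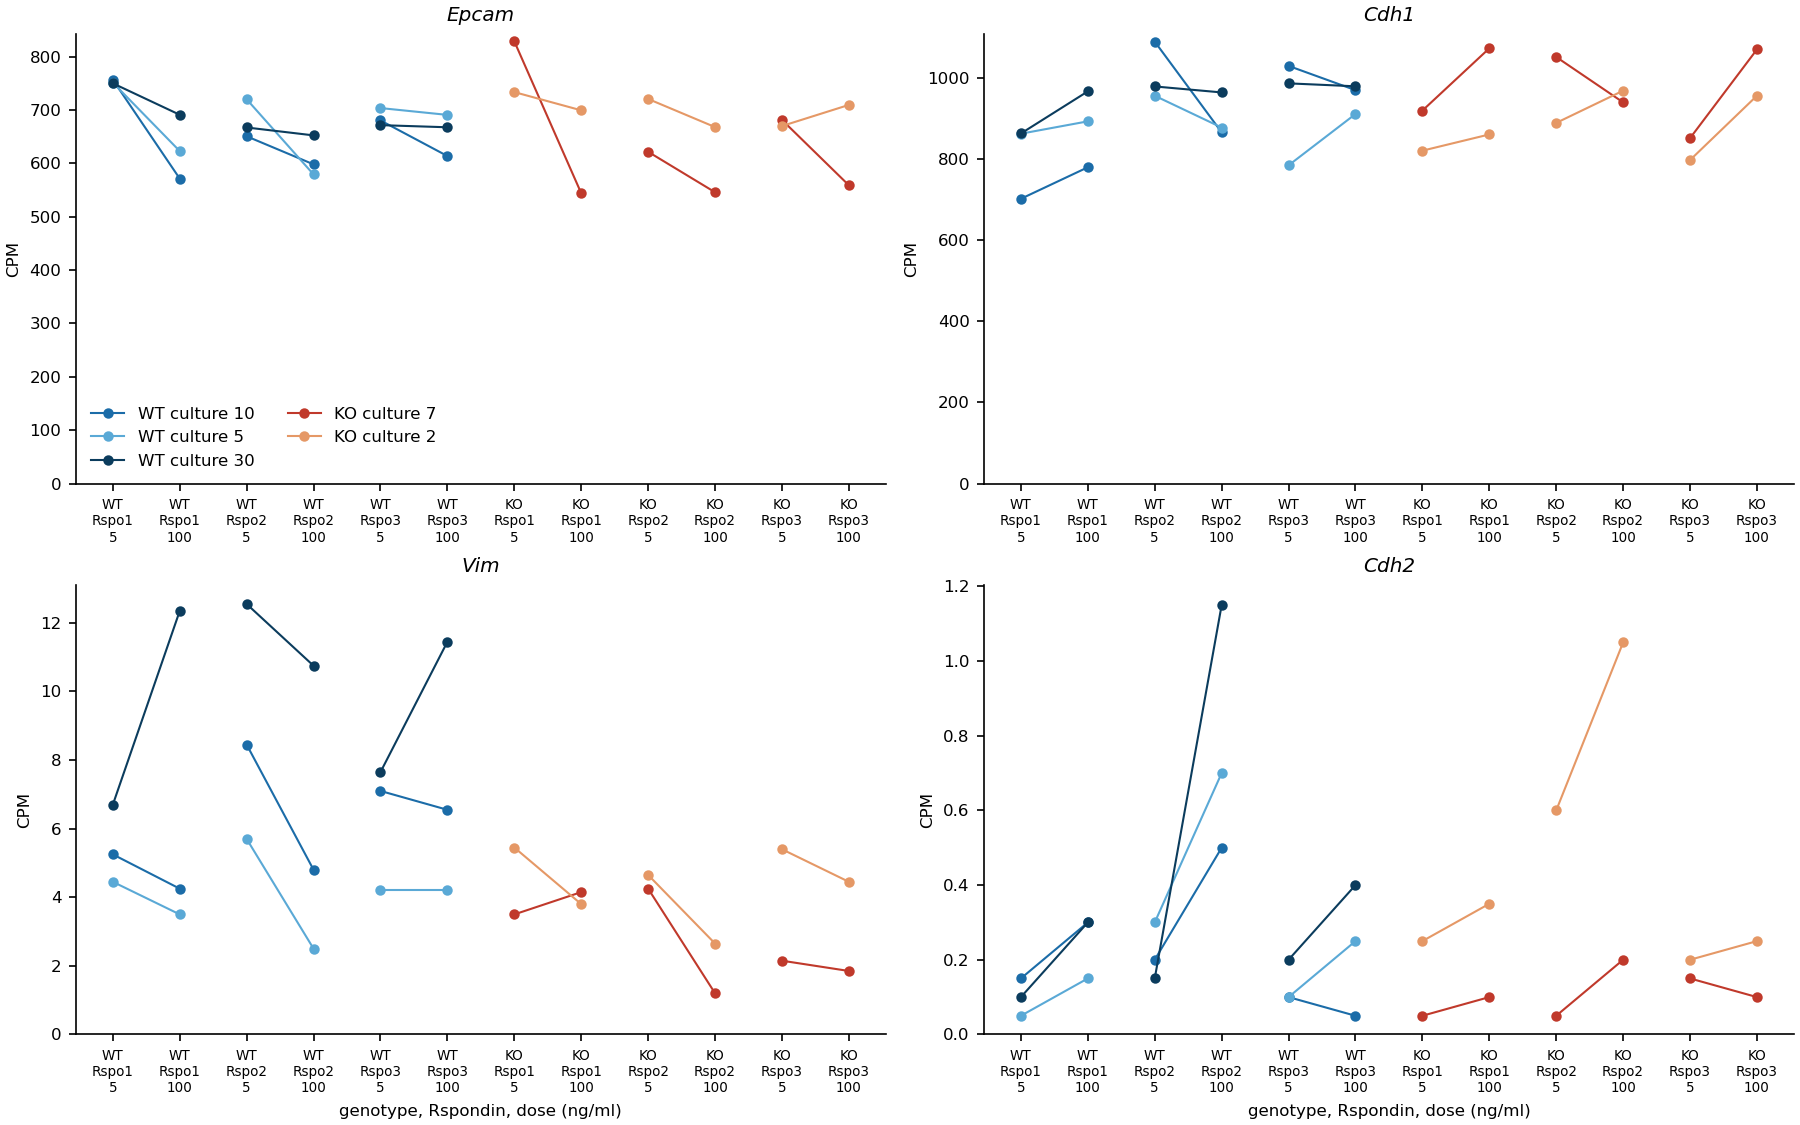
CPM of Epcam, Cdh1, Vim and Cdh2 in the 30 organoid libraries by genotype, Rspondin and dose in ng/ml, with lines joining the 2 doses of a culture and ligand. Epcam is higher at 5 than at 100 ng/ml in 14 of 15 pairs, Cdh2 is highest with Rspo2 at 100 ng/ml, and Vim differs between cultures.

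Vim differed between cultures. Its mean over 6 libraries was 10.2 ± 2.48 CPM in WT30, 6.07 ± 1.58 in WT10, 4.40 ± 1.06 in KO2, 4.09 ± 1.06 in WT5 and 2.85 ± 1.29 in KO7 (SD over ligands and doses). WT30 stood highest and KO7 lowest, and the ranges of all neighbours in this order overlapped. With Rspo2, Vim in WT10, WT5 and WT30 was at 8.45, 5.70 and 12.6 CPM at 5 ng/ml and at 4.8, 2.5 and 10.8 CPM at 100 ng/ml. It was lower at the high dose in each culture, and the change of -0.62 was called by limma only with the culture as a block (adjusted p = 0.0287), in a fit that called 2 of 4 members and 47.5% of genes. The same contrast in KO organoids gave 4.25 and 4.65 CPM at 5 ng/ml and 1.20 and 2.65 CPM at 100 ng/ml (-0.94, SE 0.54, limma adjusted p = 0.796).

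Genotype and ligand gave no called member in organoids. Between KO and WT limma called 0 of 4 members with Rspo1 at 100 ng/ml (0.214% of all genes) and at 5 ng/ml (0.125%), with Rspo2 at 100 (1.2%) and at 5 (4.54%), and with Rspo3 at 100 (0.868%) and at 5 (0.193%). The only member with an unadjusted p under 0.05 in these 6 comparisons was Vim, with Rspo2 at 100 ng/ml. Over culture means Vim was at 6.80 CPM in 3 WT and 3.63 CPM in 2 KO cultures (log2 change -0.72, 95% interval -1.49 to 0.06, limma adjusted p = 0.582), where limma called 0 members and 0.152% of genes. Epcam differed by -0.01 between genotypes (95% interval -0.26 to 0.23) and Cdh1 by 0.03 (-0.23 to 0.29).

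Between ligands, limma called 0 members in WT for Rspo2 and for Rspo3 against Rspo1 at 100 ng/ml (0.204% and 0.00523% of genes) and at 5 ng/ml (22.8% and 16.4%). In KO the shares were 0.0105% and 0% at 100 ng/ml and 17.9% and 16.2% at 5 ng/ml, again with 0 members. These comparisons share the Rspo1 libraries of their genotype and dose. At an unadjusted p under 0.05 there were 2, Cdh2 for Rspo2 against Rspo1 at 100 ng/ml and Cdh1 for the same ligands at 5 ng/ml, both in WT. With the culture as a block Cdh1 was called higher with Rspo2 than with Rspo1 at 5 ng/ml (0.32, limma adjusted p = 0.0273), beside 35.9% of genes. The dose effect did not differ by genotype for any member by limma, with 0 called and 0 at an unadjusted p under 0.05 for Rspo1 (0% of genes), Rspo2 (0.439%) and Rspo3 (0%).

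Over the 15 sorted libraries Vim, Zeb1, Zeb2 and Cdh2 varied together. Pearson's r of log2(CPM + 1) was 0.97 between Zeb1 and Zeb2, 0.97 between Zeb2 and Cdh2 and 0.87 between Vim and Zeb2. Zeb2 had r of -0.85 with Cdh1 and 0.79 with Epcam, so the 2 epithelial genes lay on opposite sides of it. Its r was 0.77 with Snai2, 0.43 with Twist1, 0.27 with Twist2 and -0.06 with Snai1, the last 3 being measured on few reads. These are descriptions over 15 libraries that share stage, line and depth, and the 4 E16.5 pools carry most of the range. Among 13103 genes with a mean of at least 5 CPM, the pattern of Zeb2 was nearest to Fbn2 (r = 0.99), followed by Fbn1, Fat4, Col6a4 and Ddr2. That of Vim was nearest to Anxa6 (r = 0.96) and Maged2, that of Cdh1 to Med24 (r = 0.99), and that of Epcam to Adam17 (r = 0.97).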

How the data were processed

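The members and the gene lists used here were chosen with earlier results of these data known. Sorted cells were sequenced with the Ovation SoLo kit and organoids with the NEBNext rRNA depletion kit. Per the labels' processing notes, Trimmomatic 0.36, STAR 2.5.3a, HTSeq 0.9.1 and GRCm38 were used, and the study's methods name Ensembl 90 genes. The authors deposited CPM, the reads counted on each gene scaled to the library's total and rounded to steps of 0.05, in 1 table for sorted cells and 1 for organoids. Every column of values was matched to a sample (0 columns left out). The matching supplementary list was used only for the genotypes of the Cre libraries.

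Depth in sorted cells was estimated from the spacing of low CPM values. Whole reads were recovered for the 4 E16.5 pools, where 100% of the values checked came out whole, and edgeR 4.0.16 (quasi-likelihood, TMM) and DESeq2 1.42.0 were run on them. In the other libraries a read is worth too little beside the rounding of 0.05 CPM, and no count test was run.

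Values were taken as log2(CPM + 1), which understates changes of low genes. Genes reaching 1 CPM in 2 or more of the libraries compared were tested with limma 3.58.1 (lmFit, eBayes with a trend) in R 4.3.3, with Benjamini-Hochberg adjustment over all genes tested. Sorted comparisons used only their own libraries, with calls at an adjusted p below 0.1 and more than 1.5-fold, and organoid contrasts were called at 0.05 in 1 fit of 12 group means over 30 libraries. Replicates are pools, embryos, mice or cultures as labelled, except that the adult HE group against E18.5 is 4 libraries of 2 mice, and p-values measure only the spread between these samples. The tests were tested on simulated data. The E16.5 numbers mark litters, the adult region numbers mice and the organoid numbers cultures, so they pair samples. Same-numbered libraries correlated in their deviations at -0.03 (E16.5), 0.26 (regions), 0.61 to 0.77 (WT organoids) and 0.35 (KO organoids). Named genes are all 10 members, the called genes of largest change in each list, and the 5 genes most like Vim, Zeb2, Cdh1 and Epcam by Pearson's r. Gene positions and exon lengths are those of GENCODE M21, promoters and miRNAs those of RefSeq. Python 3.11.15, numpy 2.4.6, pandas 2.3.3, scipy 1.17.1 and matplotlib 3.10.9 were used.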

Additional observations from a re-analysis of the deposited data

Results flagged for a closer look

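In the 4 adult HE libraries, 3 members had 1 library that stood apart from the others by Dixon's criterion. Its usual rate of about 1 of 20 groups by chance does not hold here, since the other 3 libraries were tied in each case. Snai1 was at 0 CPM in the duodenum library of mouse 1 and at 0.25 CPM in the other 3. Twist2 was at 0.25 CPM in the ileum library of mouse 2 and at 0 CPM in the other 3. Cdh2 was at 0.25 CPM in the same ileum library of mouse 2 and at 0 CPM in the other 3. A value of 0.25 CPM is about 1 read at this depth, so each of these contrasts is a difference of about 1 read.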

How the results depend on the processing

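The counts below are members called, with the value as reported first and the number of all genes called by the same fit in parentheses, since the fits differ widely in how much they call. For E16.5 KO against HE (0, with 91 genes), a mean of at least 10 CPM gave 1 (196), a single fit of all 15 sorted libraries 1 (1073), edgeR 2 (352), DESeq2 2 (116), the replicate block by litter 4 (830), and leaving out 1 pool 0 to 4. It was 3 without HE pool 1 (868), 3 without HE pool 2 (1075), 0 without KO pool 1 (53) and 4 without KO pool 2 (368), where a lone pool is assumed to vary like the others. For E18.5 against E16.5 (6, with 9138 genes), the 10 CPM filter gave 3 (5212), since it tests fewer members. For adult HE against E18.5 (3, with 3717 genes), a pseudocount of 0.1 gave 1 (3826), the 10 CPM filter 0 (2275), an FDR of 0.05 without a fold limit 1 (3155), the single fit 1 (4331), and leaving out 1 library 0 to 3. For ileum against duodenum (1, with 1280 genes), the 10 CPM filter gave 0 (709) and leaving out 1 library 0 to 1. For WT organoids with Rspo1 (0, with 10224 genes), a pseudocount of 0.1 gave 1 (10227), the 10 CPM filter 1 (6318), TMM 1 (8888), the replicate block by culture 1 (12265) and leaving out 1 culture 0 to 1. With Rspo2 (1, with 6395 genes), a fold limit of 1.5 gave 0 (3690), a pseudocount of 0.1 0 (6245), the 10 CPM filter 0 (3713), no filter 2 (6382), TMM 2 (5782), the culture block 2 (9092) and leaving out 1 culture 0 to 1. TMM gave 1 for WT with Rspo3 (9250, against 0 with 9839 as reported), for KO with Rspo1 (5229, against 0 with 5694) and for KO with Rspo3 (8095, against 0 with 8507). For KO with Rspo1 the culture block gave 1 (8387) and leaving out 1 culture 0 to 1. For Rspo2 against Rspo1 at 5 ng/ml in WT (0, with 4358 genes), the 10 CPM filter gave 1 (3673) and the culture block 1 (6871). The interaction of stage and genotype (0, with 88 genes) gave 4 (1499) with the genotypes of the supplementary list. Except where the setting itself tests fewer members or samples, the cause was not tested. No called direction reversed under any alternative run. The replicate number of the E18.5, adult and Cre comparisons marks no shared animal, and as a replicate block it left the counts at 6, 3 and 0. Count tests outside the E16.5 pools were not run. The least depth is that of E16.5 HE pool 1, where 1 read is 0.784 CPM, and Zeb1, Snai2 and Cdh2 rest on 1 to 22 reads per pool.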

Other observations

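The miR-200 family represses Zeb1 and Zeb2 in epithelial cells, and its 5 mature miRNAs are shown, from RefSeq, because they divide into 2 groups by seed (bases 2 to 8, in capitals).
miR-200a-3p: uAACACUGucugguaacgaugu
miR-200b-3p: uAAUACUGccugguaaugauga
miR-200c-3p: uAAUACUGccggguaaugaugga
miR-141-3p: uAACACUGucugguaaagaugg
miR-429-3p: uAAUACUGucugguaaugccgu
The libraries do not measure mature miRNAs, and the rows of the hairpin genes, chosen after their values were seen, hold few reads. Mir200a was at 0 CPM in all 4 E16.5 pools, at 0.25 and 0.45 CPM in the E18.5 embryos, at 0.7 to 2.95 CPM in the adult HE libraries and at 1.55 to 3.95 CPM in organoids. Mir200b was at 0 CPM in the E16.5 HE pools, 0.4 CPM in both KO pools, 0 to 1.35 CPM in adult HE libraries and 1.1 to 3.5 CPM in organoids. Mir429 was at 0 to 0.4 CPM in the E16.5 pools, 2.2 and 2.8 CPM at E18.5, 1.25 to 4.05 CPM in adult HE libraries and 0.25 to 1.15 CPM in organoids. The adult Cre libraries held Mir200a at 0 to 1.35 CPM, Mir200b at 0.2 to 0.75 CPM and Mir429 at 0.2 to 0.9 CPM, the last below its E18.5 values. Mir200c and Mir141 stayed at or below 0.95 CPM in all 15 sorted libraries. No test was run on these rows.

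Among the other regulators of epithelial-mesenchymal transition, Prrx1, a homeobox factor of mesenchyme, was measurable in WT organoids. With Rspo1 it was at 8.48 ± 4.6 CPM at 5 ng/ml and 1.40 ± 0.350 CPM at 100 ng/ml (SD, n = 3 and 3), a log2 change of -1.89 (SE 0.29, limma adjusted p = 1.8e-05). Sox9, a factor of crypt progenitors and Paneth cells, went from 37.1 ± 5.27 to 159 ± 39.2 CPM in the same comparison, with a log2 change of 2.05 (SE 0.22, limma adjusted p = 3.3e-07). This comparison called 53.4% of all genes. The other listed regulators, the other ligands and the KO organoids are not given here.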
